A study of Mus musculus with 4 samples.

Results

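Of the 12814 genes in the deposited RNA-seq table, 5 were examined, *Apba1*, *Elmod1*, *Trim36*, *Sh2d4b* and *Pkhd1l1*. They were picked by symbol because their signal in hair cells (HCs) was very much higher than in the surrounding epithelium and because their part in HCs is less well known than that of the classical HC genes. The HC to epithelium ratios therefore chose the genes, and every level, ratio and count over them below is a description without a test. All 5 symbols were found in the table, each on 1 row, and no filter removed any of them.

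The study asked which genes set HCs apart in the hearing and balance organs. HCs and epithelial non-sensory cells (ENSCs) were sorted from cochleae and from vestibular tissue of newborn (postnatal day 1) *Atoh1/nGFP* mice on the C57BL/6 background, with inner ears of several mice pooled for each sort. In these transgenic mice the reporter, a nuclear green fluorescent protein, follows *Atoh1*, which HCs express, and all 4 groups carried it. HCs were positive for the fluorescent protein and for CD326, the epithelial surface protein encoded by *Epcam*, whereas ENSCs were positive for CD326 alone. The sort takes all HC types of an organ together. The table held 1 library for each of the 4 groups, so no value has a replicate error, no difference between groups can be tested, and a fold describes a pair of libraries.

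HCs turn the deflection of a bundle of actin-filled stereocilia into an electrical signal, and they pass it to the nerve at ribbon synapses packed with vesicles. The 5 genes encode proteins with different places in such a cell. *Apba1* encodes MINT1, also called X11 alpha, an adaptor with a phosphotyrosine-binding domain and PDZ domains that binds the scaffold CASK and the amyloid precursor protein. *Elmod1* encodes a GTPase-activating protein for ARF-family small GTPases, which steer membrane traffic and actin, and mice lacking it are deaf and have balance defects. *Trim36* encodes a RING-type ubiquitin ligase with a COS box, a short region found in proteins that bind microtubules. *Sh2d4b* encodes an adaptor with an SH2 domain, the module that binds phosphorylated tyrosines, and its role is little studied. *Pkhd1l1* encodes fibrocystin-L, a very large membrane protein with a long extracellular part that coats stereocilia and is related to the polycystic kidney disease protein fibrocystin.

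Promoter sequences were at hand in the RefSeq table (GRCm38.p6) for 2 of the 5 genes, *Apba1* and *Sh2d4b*. They are shown because both genes stood far above ENSCs in both organs while the base composition of their starts had little in common. Capitals mark E-boxes of the letters CAGCTG or CAGATG, a type of site bound by basic helix-loop-helix factors such as ATOH1, and the 250 bases before the start are given from 5′ to 3′ on the strand of the gene.
*Apba1*, chr19:23758626-23758875, plus strand: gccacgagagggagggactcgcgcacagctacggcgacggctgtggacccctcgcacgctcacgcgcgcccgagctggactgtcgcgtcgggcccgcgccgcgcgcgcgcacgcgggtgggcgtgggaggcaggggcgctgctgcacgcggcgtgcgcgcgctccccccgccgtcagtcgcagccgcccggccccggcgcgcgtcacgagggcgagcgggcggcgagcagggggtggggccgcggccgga
*Sh2d4b*, chr14:40893315-40893564, minus strand: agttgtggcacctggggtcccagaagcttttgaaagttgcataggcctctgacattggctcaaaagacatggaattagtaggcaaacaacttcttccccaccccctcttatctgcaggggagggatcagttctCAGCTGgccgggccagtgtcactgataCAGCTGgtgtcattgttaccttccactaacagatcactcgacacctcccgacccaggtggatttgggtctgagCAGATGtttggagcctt

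The *Apba1* window was 81.6% G and C and held 49 CG dinucleotides, more CG than in 99.9% of the 32851 promoters in the table. The *Sh2d4b* window was 52.0% G and C, close to the median promoter at 52.4%, and held 3 CG dinucleotides against a median of 6. Both strands were searched for CAGCTG, for CAGATG, for GTTGCC, the core letters bound by RFX factors, and for the X-box, taken as these letters followed after 0 to 3 bases by their reverse complement with at most 2 mismatches. These letters were absent from the *Apba1* window. In *Sh2d4b*, CAGCTG began at positions -117 and -90 relative to the start and CAGATG at -17, and neither RFX pattern was found. Over all promoters CAGCTG was present in 13.0%, CAGATG in 14.4%, GTTGCC in 10.4% and the X-box in 5.19% of windows of the same length. The windows hold no bases after the start, whereas the interval of the study's own RFX motif search spanned it, so a site there would be missed. Such matches describe the sequence only, and binding was not measured in these libraries.

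The genes lie on separate chromosomes of the mm9 assembly (NCBIM37). *Apba1* (ENSMUSG00000024897) spans chr19:23833366-24024087 on the plus strand, with 13 exons and an exonic length of 6897 bases. *Elmod1* (ENSMUSG00000041986) spans chr9:53759267-53823108 on the minus strand, with 11 exons and 2660 exonic bases. *Trim36* (ENSMUSG00000033949) spans chr18:46324956-46372261 on the minus strand, with 10 exons and 4849 exonic bases. *Sh2d4b* (ENSMUSG00000037833) spans chr14:41627078-41706555 on the minus strand, with 5 exons and 4027 exonic bases. *Pkhd1l1* (ENSMUSG00000038725) spans chr15:44289099-44428689 on the plus strand, with 78 exons and 12754 exonic bases, longer than 97.7% of the genes in the table. *Trim36* overlaps 1 other gene, *1700018A14Rik*, which runs on the opposite strand and has no row here. Whether reads were counted by strand is not stated, so the reads of *Trim36* and of that partner may not have been told apart.

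All but *Pkhd1l1* shared one pattern across the libraries. They were strong in the HCs of both organs, much lower in cochlear ENSCs and at or near the lowest possible value in vestibular ENSCs. That gene differed, being strong in cochlear HCs alone. All values are quantile-normalized signals per gene with a floor of 20, not divided by gene length, and each library had a median of 120 and 1412 genes at the floor. In such bulk samples, fewer cells of a type and less RNA per cell cannot be told apart.

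*Apba1* gave a signal of 4482.75 in cochlear HCs, 84.75 in cochlear ENSCs, 9076 in vestibular HCs and 23.75 in vestibular ENSCs. Both HC libraries lay far above both ENSC libraries, and the vestibular HCs were the highest of the 4. Cochlear HCs exceeded cochlear ENSCs 52.9-fold and vestibular HCs exceeded vestibular ENSCs 382-fold, which is 5.73 and 8.58 on the log2 scale. Ranked among protein-coding genes that reached 200 in the HC or ENSC library, the cochlear ratio was the 12th largest of 5799 and the vestibular ratio the largest of 6104. These and the following ranks hold for the values as listed, since genes whose ENSC signal was at the floor or tied could have larger ratios, *Elmod1* among them. In the cochlear order it stood between *Galnt13* and *5330437I02Rik*, and in the vestibular order *Elmod1* came next.

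*Elmod1* gave 4169 in cochlear HCs, 108 in cochlear ENSCs, 6846 in vestibular HCs and 20, the floor, in vestibular ENSCs. The order of the libraries was that of *Apba1*. The cochlear ratio was 38.6-fold, which placed it 34th between *Depdc7* and *BC030476*. Because the vestibular ENSC value was at the floor, the vestibular ratio was at least 342-fold, and its listed value came 2nd.

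*Trim36* gave 5085 in cochlear HCs, 233 in cochlear ENSCs, 6667.75 in vestibular HCs and 23.75 in vestibular ENSCs. Its cochlear ENSC value was the highest ENSC value of the 5 genes and exceeded the median gene of that library. Ratios were 21.8-fold in the cochlea, where it ranked 84th between *Rph3a* and *Herc6*, and 281-fold in the vestibular system, where it ranked 3rd, just above *Xirp2*.

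*Sh2d4b* gave 3331 in cochlear HCs, 103.75 in cochlear ENSCs, 4963 in vestibular HCs and 21.75 in vestibular ENSCs. Again the HC libraries stood apart from both ENSC libraries. Its cochlear ratio was 32.1-fold and its vestibular ratio 228-fold. It ranked 47th in the cochlea, between *Pcdh8* and the HC determination gene *Atoh1*, and 6th in the vestibular system, between the dynein heavy chain gene *Dnahc5* and the potassium channel gene *Kcnh7*.

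*Pkhd1l1* gave 5687.75 in cochlear HCs, 66.25 in cochlear ENSCs, 62.25 in vestibular HCs and 20, the floor, in vestibular ENSCs. The cochlear HC value was the highest of the 5 genes in that library, whereas the vestibular HC value fell below the median gene and slightly below the cochlear ENSC value. The cochlear ratio of 85.9-fold was the 2nd largest of 5799, between *Gad2*, which encodes a GABA-synthesizing enzyme, and the potassium channel subunit gene *Kcnmb2*. In the vestibular system the ratio was at least 3.11-fold, between a pair of low values. Adding 20 to every value before the ratio was taken brought its log2 from 1.64 to 1.04, below 3-fold.

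**Figure D1:**
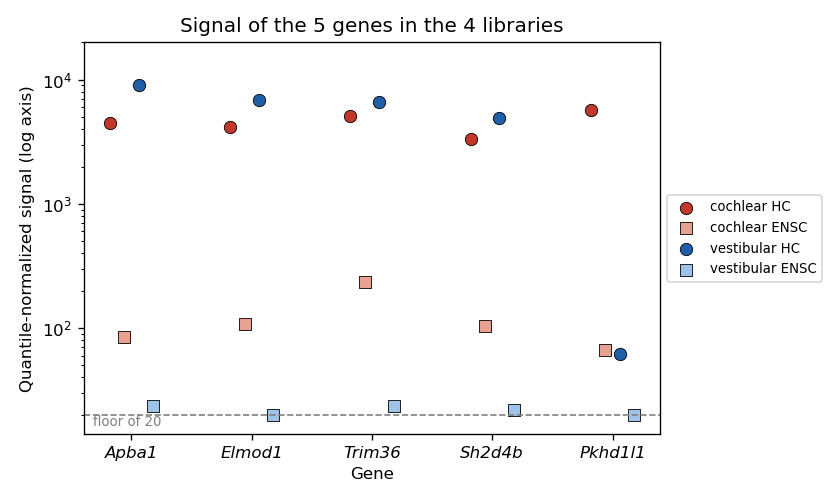
Quantile-normalized signal (log axis) of the 5 genes in the 4 libraries, 1 point per library and no error bars. Circles are HCs, squares are ENSCs, red is cochlea, blue is vestibular system, and the dashed line is the floor of 20. The HC points of *Apba1*, *Elmod1*, *Trim36* and *Sh2d4b* lie between 3331 and 9076, while the vestibular HC point of *Pkhd1l1* is at 62.25.

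Taking at least 3-fold as the threshold, HCs exceeded ENSCs for 5 of the 5 genes in the cochlea, where 8.39% of all genes did so, and for 5 of 5 in the vestibular system, where 13.8% did so. In both organs at once, 5 of the 5 passed 3-fold against 4.99% of all genes. At 10-fold and at 20-fold in both organs, 4 of the 5 passed, against 1.3% and 0.523% of all genes. At 30-fold, the 3 genes *Apba1*, *Elmod1* and *Sh2d4b* passed, against 0.219%. The genes were selected on these ratios, and nothing further is read from these counts. The median log2 ratio of the 5 was 5.27 for the cochlear and 8.13 for the vestibular pair of libraries, beside 0.00 and -0.0045 over all genes.

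**Figure D2:**
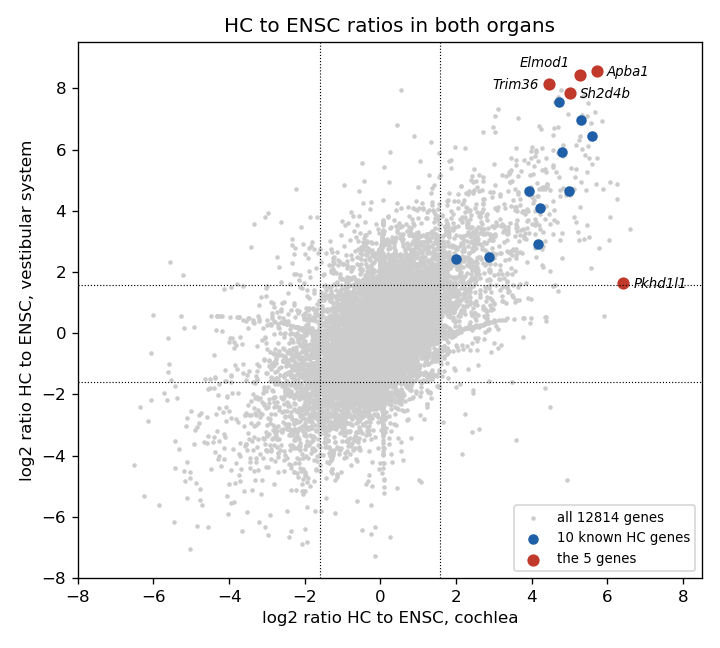
Log2 ratio of HC to ENSC signal in the cochlea (horizontal) and vestibular tissue (vertical) for 12814 genes in grey, 10 known HC genes in blue and the 5 genes in red. Dotted lines mark 3-fold either way. *Apba1*, *Elmod1*, *Trim36* and *Sh2d4b* sit at the upper edge, at 7.83 or higher, and *Pkhd1l1* sits at the right edge at 6.42 horizontally and 1.64 vertically.

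A further way to read the same values is the ENSC signal as a percent of the HC signal. In the cochlea it was 1.89% for *Apba1*, 2.59% for *Elmod1*, 4.58% for *Trim36*, 3.11% for *Sh2d4b* and 1.16% for *Pkhd1l1*. The 10 known HC genes, which include *Atoh1*, *Pou4f3*, *Gfi1* and *Myo7a*, ranged from 2.07% to 25.2% there with a median of 4.57%, but 5 of them were within the tied low values of cochlear ENSCs, so their percents are not well determined and the order relative to them is not known. In the vestibular system the values were 0.262% for *Apba1*, at most 0.292% for *Elmod1*, 0.356% for *Trim36* and 0.438% for *Sh2d4b*, all below the lowest listed value of a known HC gene, 0.532%. *Pkhd1l1* was at 32.1% at most, and the highest listed value of a known gene was 18.6%. In vestibular ENSCs, 8 of the 10 known genes were at the floor, so their percents are upper bounds set by the HC level, and the order relative to them is not known. Of the 2227 genes with a vestibular ENSC signal of 25 or less, *Apba1*, *Elmod1* and *Trim36* had the 3 highest vestibular HC signals, *Sh2d4b* ranked 6th and *Pkhd1l1* ranked 747th.

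**Figure D3:**
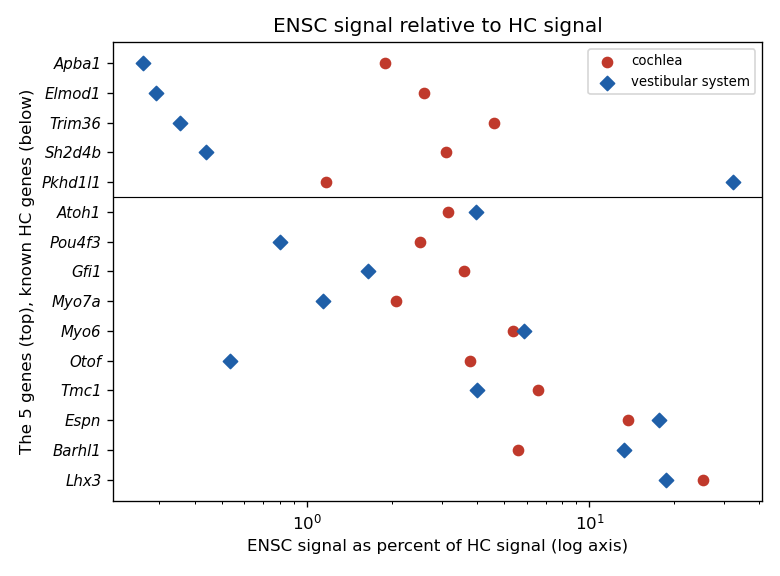
ENSC signal as a percent of HC signal (log axis) in the cochlea (red circles) and the vestibular system (blue diamonds), with the 5 genes at the top and 10 known HC genes below the line, 1 pair of libraries per organ and no error. The vestibular points of *Apba1*, *Elmod1*, *Trim36* and *Sh2d4b* lie left of every known HC gene, and that of *Pkhd1l1* lies at 32.1%. Vestibular points of *Elmod1*, *Pkhd1l1* and 8 known genes are upper bounds, since ENSCs were at the floor.

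Between organs, HCs and ENSCs both changed, by unequal amounts. Vestibular HCs exceeded cochlear HCs 2.02-fold for *Apba1*, 1.64-fold for *Elmod1*, 1.49-fold for *Sh2d4b* and 1.31-fold for *Trim36*, all within 3-fold. *Pkhd1l1* went the other way, with cochlear HCs 91.4-fold above vestibular HCs, and it was the 1 gene of the 5 at least 3-fold apart between HC libraries, where 9.3% of all genes were. In ENSCs, the cochlear library exceeded the vestibular one by 3-fold or more for all 5, as for 7.8% of all genes. That excess was 3.57-fold for *Apba1*, 4.77-fold for *Sh2d4b* and 9.81-fold for *Trim36*. Against the floor it was at least 5.4-fold for *Elmod1* and at least 3.31-fold for *Pkhd1l1*. These ENSC differences lie between signals of 66.25 to 233 and signals of 20 to 23.75, and raising all values below 100 to 100 left 0 of the 5 past 3-fold.

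Accordingly, the HC to ENSC ratio was larger in the vestibular system for 4 of the genes, by 7.22-fold for *Apba1*, at least 8.87-fold for *Elmod1*, 12.9-fold for *Trim36* and 7.11-fold for *Sh2d4b*, and smaller for *Pkhd1l1*. All 5 ratios differed between organs by at least 3-fold, where 21.4% of all genes did. On the log2 scale, the 2.85 of *Apba1* was made up of 1.02 from higher vestibular HCs and 1.84 from lower vestibular ENSCs. For *Trim36* the same parts were 0.39 and 3.29, for *Elmod1* 0.72 and at least 2.43, and for *Sh2d4b* 0.58 and 2.25. The ENSC part was the larger in these 4 genes on the deposited values, but this order rests on low signals. With a floor of 100 the ENSC part was 0.00 for *Apba1*, 0.11 for *Elmod1* and 0.05 for *Sh2d4b*, below their HC parts, and it stayed the larger, at 1.22, for *Trim36*. For *Apba1* the order had already turned with a floor of 50, at 0.76. For *Pkhd1l1* the difference of -4.79 was the sum of -6.51 from HCs and 1.73 from ENSCs, the latter a lower bound. Floors of 50 and 100 moved this difference to -6.11 and -5.83.

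Over HC genes at large the HC part was centred near 0. Of the 640 genes with a 3-fold HC excess in both organs, the 5 genes included, 49.4% were higher in vestibular HCs, with a median HC part of -0.02. No such summary is given for the ENSC part, because 327 of these genes were within the tied low values of an ENSC library, which reached 22.75 in cochlear and 20 in vestibular ENSCs.

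**Figure D4:**
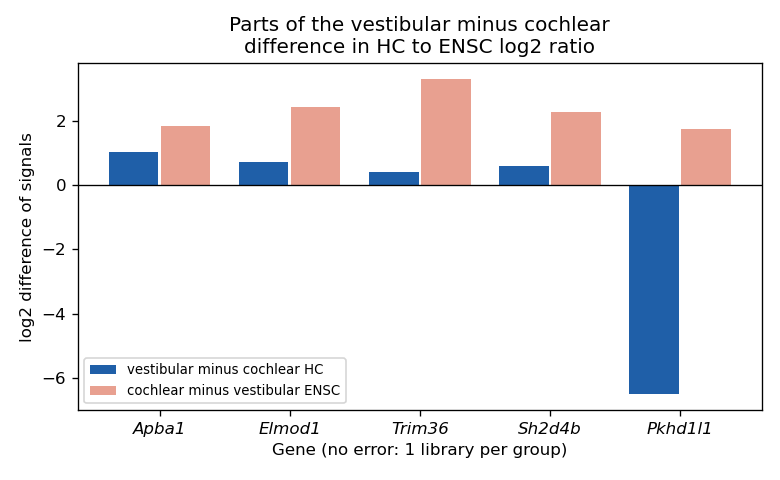
Log2 differences that make up the change of the HC to ENSC ratio from cochlea to vestibular system. Blue bars are vestibular minus cochlear HCs, and pink bars are cochlear minus vestibular ENSCs, a lower bound for *Elmod1* and *Pkhd1l1*. On the deposited values pink bars exceed blue ones in *Apba1*, *Elmod1*, *Trim36* and *Sh2d4b*, an order that a floor of 100 turned in all but *Trim36*, and the HC bar of *Pkhd1l1* reaches -6.51.

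Divided by exonic length, the order of the genes changed, since their lengths differ. Per kilobase of exon, the cochlear HC signal was 1567 for *Elmod1*, 1049 for *Trim36*, 827 for *Sh2d4b*, 650 for *Apba1* and 446 for *Pkhd1l1*. *Elmod1*, the shortest, thus came first and *Pkhd1l1*, the longest and the one with the highest undivided signal, came last. In vestibular HCs the signal per kilobase was 2574 for *Elmod1*, 1375 for *Trim36*, 1316 for *Apba1* and 1232 for *Sh2d4b*, and 4.88 for *Pkhd1l1*. The values of *Trim36*, *Apba1* and *Sh2d4b* there were close to each other, and with the length of the longest transcript in place of all exons *Sh2d4b* moved ahead of *Trim36* and *Apba1*. Among all genes with a length, *Elmod1* ranked 103rd in cochlear and 61st in vestibular HCs per kilobase.

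The genes whose pattern over the 4 libraries came closest were sought among the 6726 protein-coding genes that reached 200 in 1 or more libraries, by the root mean square difference of log2 values centred on each gene's own mean. *Apba1* had *Elmod1* at 0.28, *Xirp2* at 0.40 and *Sh2d4b* at 0.42 among its nearest. *Elmod1* had *Sh2d4b* at 0.23, *Apba1* at 0.28 and *Rbm24* at 0.32. Both thus had other genes of the shared pattern among their nearest.

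*Sh2d4b* had the closest partners of all, with *Rbm24*, which encodes an RNA-binding splicing regulator, at 0.12, *Ptprq*, which encodes a phosphatase of the stereocilia base, at 0.18 and *Elmod1* at 0.23. *Trim36* had *Rbm24* at 0.31, *Ptprq* at 0.32, *Kcnh7* at 0.35 and *Sh2d4b* at 0.38. Within 0.5 log2 units there were 17 genes for *Sh2d4b*, 9 for *Elmod1*, 5 for *Trim36* and 4 for *Apba1*. For *Pkhd1l1* there were 0, and its nearest were *Fam40b* at 0.63, *Insm1* at 0.76, *Coro2a* at 1.14 and *Gad2* at 1.23. The nearest of the other 4 genes to it was *Trim36*, at 2.75. Likeness over 4 libraries is a description of these columns and says nothing on shared control.

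*Fam40b*, nearest to *Pkhd1l1*, gave 4940 in cochlear HCs, 74.5 in cochlear ENSCs, 166.75 in vestibular HCs and 20 in vestibular ENSCs. *Insm1*, which encodes a zinc-finger transcription factor needed for outer HC identity, gave 1378.75, 22.75, 29.75 and 20 in the same order. Like *Pkhd1l1*, both were by far highest in cochlear HCs. Over the whole table, 13 genes (0.101%) had a cochlear HC signal at least 10-fold above each of the other 3 libraries and 4 genes (0.0312%) at least 20-fold. These 4 were *Pkhd1l1* at 85.9-fold, *Insm1* at 45.2-fold or more, its vestibular HC value being within the tied low values, *Fam40b* at 29.6-fold and *Bcl11b*, a transcription factor gene named after its values were seen, at 20.3-fold.

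The nearest protein-coding genes with a row in the table mostly did not share the levels. The partner that overlaps *Trim36* has no row and is left out. Around *Apba1*, *Gm9938* had a log2 HC to ENSC ratio of -0.27 in cochlea and 0.56 in vestibular tissue, and *Fam189a2* had -0.27 in cochlea and a vestibular HC signal of 20.5, within the tied low values, at distances of 33.8 and 23.2 kb. Around *Pkhd1l1*, *Eny2* had 0.16 and 0.34 at 19.9 kb, and *Ebag9* had 0.19 and 1.09 at 22.5 kb. Next to *Trim36*, *Pggt1b* had -0.19 and 0.21 at 27.3 kb, and next to *Sh2d4b*, *Tspan14* had -0.63 and 0.03 at 13.2 kb. None of these 6 reached an HC excess of 3-fold in either organ. Over all genes 8.39% (cochlea) and 13.8% (vestibular) did, so the absence among 6 genes does not set them apart. The other neighbours lay 281 kb or more away, and of these *Kcnn2* at 479 kb from *Trim36* and *Gldn* at 311 kb from *Elmod1* did pass in the cochlea, with ENSC signals of 21.5 and 20. In the vestibular system *Kcnn2* passed as well, at 77 in HCs against the floor in ENSCs.

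The wider families of the 5 genes were then described from lists of symbols. For MINT1, 12 of 17 listed family members and partners had a row, and its relatives *Apba2* and *Apba3* had none. In the cochlea 4 of the 12 were at least 3-fold higher in HCs and 0 lower, where 8.39% of all genes were higher and 9.2% lower. For the vestibular libraries 2 of the 12 were higher and 2 lower, against 13.8% and 14.3%. Median log2 ratios were 0.40 and 0.50. *Nrxn3*, a presynaptic adhesion gene of the neurexins, stood closest to *Apba1*, with 6043 in cochlear HCs, 345.75 in cochlear ENSCs, 6518 in vestibular HCs and 293.5 in vestibular ENSCs, log2 ratios of 4.13 and 4.47.

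The partners of MINT1 named next did not share its pattern. *Cask* had log2 ratios of -0.39 (cochlea) and -1.67 (vestibular), and *App*, the amyloid precursor protein gene, was at -0.33 and -0.60 with signals from 5935.25 in cochlear HCs to 10581.5 in vestibular ENSCs. Its relative *Aplp2* was at 0.54 and -2.30.

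For *Elmod1*, all 23 listed members of the ELMOD, ELMO and ARF families had a row. In the cochlea 1 of 23 was at least 3-fold higher in HCs and 1 lower, and for the vestibular libraries 1 was higher and 6 were lower, with medians of -0.23 and -0.43. Over all genes the shares were 8.39% higher and 9.2% lower in the cochlea, and 13.8% and 14.3% for the vestibular libraries. *Arf6*, an ARF that acts on actin and endocytosis, gave 2279.75 in cochlear HCs, 3024.25 in cochlear ENSCs, 2046.5 in vestibular HCs and 2198.75 in vestibular ENSCs, with little difference between cell types. The sister gene *Elmod2* had log2 ratios of 0.53 and 0.92, and *Elmod3*, a deafness gene, was between 20 and 27 in each library. *Arl6*, a gene of the ciliary Bardet-Biedl pathway, was the 1 gene higher in vestibular HCs, at 2.91, and *Arl4c* was lower at -3.28 and -2.99.

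For *Trim36*, 31 other TRIM genes had a row. In the cochlea 3 were at least 3-fold higher in HCs and 4 lower, and for the vestibular libraries 5 were higher and 6 lower, with medians of -0.27 and -0.28, beside all-gene shares of 8.39%, 9.2%, 13.8% and 14.3% in the same order. The family as a whole was therefore near the background, and *Trim36* stood at its upper end in both organs. *Trim45* reached 3.47 in the cochlea, and *Trim71* was at least 13.2-fold higher in vestibular HCs, with the ENSC value at the floor. In the COS-box subgroup, which shares *Trim9* and *Trim46* with this list, 5 of 10 had a row. *Trim9* and *Fsd1l* passed 3-fold toward HCs in both organs, and *Mid1* was lower in the cochlea at -2.02. *Fsd1l* gave 17991.75 in cochlear HCs, 1178.75 in cochlear ENSCs, 9522.5 in vestibular HCs and 413.75 in vestibular ENSCs.

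Few relatives of the last pair of genes could be described. Of 16 SH2-domain adaptors listed around *Sh2d4b*, the 3 genes *Sh2b1*, *Sh2b3* and *Shb* had a row, and 0 passed 3-fold in either organ. Of 3 fibrocystin relatives, *Tmem2* and *Cemip* had a row, and 0 passed 3-fold between HCs and ENSCs. Over all genes 8.39% were higher in HCs and 9.2% lower in the cochlea, and 13.8% and 14.3% for the vestibular libraries. A count of 0 among so few genes therefore sets neither list apart. *Tmem2* had log2 ratios of -1.07 and 0.72. *Cemip* gave 323.25 in cochlear HCs, 124.5 in cochlear ENSCs, 28.25 in vestibular HCs and 79 in vestibular ENSCs. Cochlear HCs thus exceeded vestibular HCs in *Cemip* by at least 10.6-fold, the direction of *Pkhd1l1*, and *Pkhd1*, which encodes fibrocystin itself, had no row.

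By contrast, genes of the surface and links of the hair bundle, the site of fibrocystin-L, were mostly higher in HCs. Of 12 listed and measured, 10 were at least 3-fold higher in HCs for each organ, where 8.39% (cochlea) and 13.8% (vestibular) of all genes were, with medians of 3.90 and 3.77. *Ptprq* gave 16850.75 in cochlear HCs, 692.25 in cochlear ENSCs, 23927 in vestibular HCs and 126.5 in vestibular ENSCs. *Gpr98*, which encodes a very large adhesion receptor of the links between stereocilia, had log2 ratios of 5.23 and 3.32. *Otoa*, which anchors an overlying gel to non-sensory cells, was lower in HCs at -4.14 and -3.28, and *Vezt* passed in neither direction. In none of the 12 did cochlear HCs exceed vestibular HCs 3-fold, as they did in 4.21% of all genes and in *Pkhd1l1*.

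**Figure D5:**
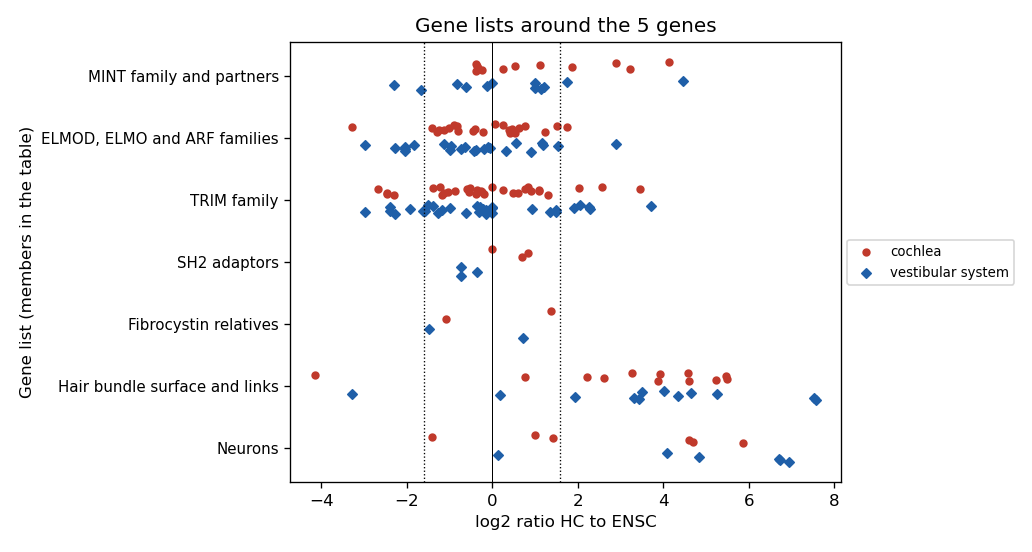
Log2 ratios of HC to ENSC signal for the genes of each list with a row in the table, cochlea in red circles and vestibular system in blue diamonds. Vertical position within a list has no meaning and dotted lines mark 3-fold either way. Hair bundle genes lie to the right with medians of 3.90 and 3.77, and the ELMOD, ELMO and ARF genes lie around -0.23 and -0.43.

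The labels were checked against markers. All 10 known HC genes passed 3-fold toward HCs in each organ, and of 4 epithelial genes 3 in the cochlea and 4 in vestibular tissue passed 3-fold toward ENSCs. Over all genes, 8.39% in the cochlea and 13.8% in vestibular tissue passed toward HCs, and 9.2% and 14.3% toward ENSCs. The counts below are to be read beside these shares, and a count near them does not set a list apart. Of 10 listed neuronal genes, 6 had a row, and their summed signal was higher in HCs of both organs and lowest in vestibular ENSCs, as were the 5 genes, but without the organ difference of *Pkhd1l1* between HCs. It was 8622 in cochlear HCs, 1670.5 in cochlear ENSCs, 8488.25 in vestibular HCs and 171.25 in vestibular ENSCs. In the cochlea 3 of the 6 and in vestibular tissue 5 of the 6 passed 3-fold toward HCs. *Nefl*, *Nefm* and *Snap25* were among them, at the floor in vestibular ENSCs, while *Stmn2* did not exceed 30.75 in either HC library. The sort for CD326, an epithelial protein, was meant to leave neurons out of the HCs. The part of neuronal RNA in the ratios of *Apba1* and the others was not tested. Of the 10 supporting cell genes, 0 in the cochlea and 1 in vestibular tissue passed toward HCs, while 4 and 3 passed toward ENSCs. Of 5 glial genes 0 passed toward HCs in either organ, and their summed signal was 2698.25 in cochlear HCs, 1486.25 in cochlear ENSCs, 507 in vestibular HCs and 1664.25 in vestibular ENSCs. Of the 5 mesenchymal genes with a row, 1 passed toward HCs in each organ, and their summed signal was 595.5 in cochlear HCs, 1796.75 in cochlear ENSCs, 329.5 in vestibular HCs and 1605 in vestibular ENSCs. Of the 5 listed endothelial genes and the 5 listed blood genes, *Kdr* and *Cd68* alone had a row. The endothelial gene *Kdr* reached 1461.75 in vestibular ENSCs and at most 29.75 elsewhere, and the blood gene *Cd68* was between 20 and 24.75 throughout. With 1 gene each, the presence of such cells cannot be judged.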

How the data were processed

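RNA from sorted HCs and ENSCs of the cochlea and vestibular system was measured in 4 libraries, 1 per group. NuGEN Ovation reagents amplified the RNA before library construction. Per the methods and the submitters' processing notes, the authors aligned the first 50 bases of the reads to mm9 with TopHat. HTSeq then counted them over ENSEMBL genes. The methods name quantile normalization next, followed by a floor of 20. In the deposited values 1412 genes were at 20 in each library. Tied low values, however, covered 1412 genes in vestibular ENSCs and 2695 in vestibular HCs, so the order of floor and normalization is not certain. Versions, annotation release and strandedness are not given in the sources used here. The deposited values are therefore a signal per gene, no longer counts: sorted values were identical in the 4 columns and summed to 7830343 in each. Real depth is unknown, overall differences between libraries are removed, and no counting interval can be given. The design text speaks of triplicates, but 1 column per population was analysed here. Columns labelled as non-HC are read here as ENSCs of that organ.

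Log2 ratios were computed with no pseudocount in Python 3.11.15 with pandas 2.3.3 and numpy 2.4.6, and at least 3-fold was the threshold. Ratios against a value at the floor of 20 are given as lower bounds. In each library the lowest values, up to a signal of 20 to 30.5, are largely tied or ordered without information, which the alternatives take into account. Exonic length, GC content and positions came from GENCODE on NCBIM37, found for 12799 of 12814 genes. The ratio script was tested on simulated data.

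The members and lists were chosen with earlier results of these data known. Named genes were the 5 members, the listed genes, for each member the 4 protein-coding genes most alike among those of at least 200 in the highest library, the genes next to it in the order of ratios, its chromosome neighbours and 10 known HC genes. Values of some genes under this rule are not reported here. Alternatives were floors of 50 and 100, pseudocounts of 20 and 100, centring, raising of tied low values, correction of ratios for length and GC content (local regression over 0.3 of genes, 2 iterations, statsmodels 0.14.6) and thresholds of 2, 5 and 10.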

Additional observations from a re-analysis of the deposited data

How the results depend on the processing

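No paired analysis was run, since each organ was described apart, and no replicate could be left out because each group had 1 library. Counts over the 5 genes of HC above ENSC stayed within 1.5 times of 5 in each organ under the alternatives run. The count at least 3-fold apart between the HC libraries was 1, and 2 at a threshold of 2. The count for the ENSC libraries was 5 and fell to 1 with a floor of 50, 0 with a floor of 100, 2 with a pseudocount of 20, 0 with a pseudocount of 100, and 2 and 0 at thresholds of 5 and 10. The count for the ratio between organs was 5, and 2 with a floor of 100, with a pseudocount of 100 or at a threshold of 10. By their construction, higher floors and pseudocounts shrink differences among low values.

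Of 175 single-gene values under these alternatives, 146 kept direction and side of the threshold, 26 kept direction but no longer passed it, 3 became exactly 0, and 0 reversed. Floors and pseudocounts cannot reverse the ratio of a pair of signals, so the absence of reversals was in part fixed in advance. The vestibular log2 ratio of *Pkhd1l1* was 0.32 and 0.00 with floors of 50 and 100, 1.04 and 0.44 with pseudocounts of 20 and 100, and 1.07 after correction for length and GC content. With a pseudocount of 100, the vestibular log2 ratios were still 6.21 for *Apba1*, 5.86 for *Elmod1*, 5.77 for *Trim36* and 5.38 for *Sh2d4b*. Over all genes, the count higher in HCs was 1075 (cochlea) and 1762 (vestibular), and 394 and 672 with a pseudocount of 100. By the largest absolute difference, *Otof* entered the 4 genes most like *Apba1*, and *Galnt13* replaced *Gad2* for *Pkhd1l1*.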
